A study of Mus musculus with 13 samples.

Results

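The guide strands of the let-7 family were followed in the blood plasma of 13 mice: let-7a-5p, let-7b-5p, let-7c-5p, let-7d-5p, let-7e-5p, let-7f-5p, let-7g-5p, let-7i-5p and miR-98-5p. They were taken by name from a table of raw counts, in which they are 9 of 1907 mature miRNAs, of which 1203 had a count. All 9 were counted in every mouse and passed the filter on low counts, as 9 of the 368 miRNAs tested. The naive wt group held 3 untreated C57BL/10J mice (86, 89 and 95), and the naive mdx group 3 untreated C57BL10ScSn-Dmdmdx/J mice (36, 37 and 39), whose Dmd mutation removes full-length dystrophin from muscle. A further 4 mdx mice (40, 41, 42 and 43) received the vehicle, 0.5% methylcellulose, by gavage on 5 days a week for 15 weeks, and 3 mdx mice (31, 34 and 35) received the histone deacetylase inhibitor Givinostat at 37.5 mg/kg in that vehicle on the same schedule. All were males bought as young adults, and no wt mouse received vehicle or drug. Every title, those of untreated mice included, carries the same time point, which the paper places after the 15 weeks of treatment. The strain label of every sample reads C57BL/10J, so mdx mice were recognised by their titles.

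miRNAs are short RNAs that guide Argonaute proteins to messenger RNAs, mostly through their seed, bases 2 to 8 from the 5′ end. The let-7 family is a large family with 1 seed, known for its rise as animal cells differentiate, for repressing Lin28, Hmga2 and Ras messenger RNAs, and for being held low in stem cells by the RNA-binding protein LIN28, which blocks maturation of let-7 precursors. Each hairpin gives a guide strand from its 5′ arm, which is kept, and a passenger strand from its 3′ arm, most of which is degraded in many cells. In adults the guide strands are abundant in nearly all tissues, so their plasma level has no single organ of origin.

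The mature sequences (RefSeq, GRCm38.p6; all 9 matched by name) show how little separates the members. The seed is in capitals, and the prefix mmu, for mouse, is left out elsewhere.
mmu-let-7a-5p: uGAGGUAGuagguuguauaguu
mmu-let-7b-5p: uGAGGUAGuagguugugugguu
mmu-let-7c-5p: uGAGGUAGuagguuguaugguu
mmu-let-7d-5p: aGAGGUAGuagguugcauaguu
mmu-let-7e-5p: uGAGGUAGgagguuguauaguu
mmu-let-7f-5p: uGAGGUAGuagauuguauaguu
mmu-let-7g-5p: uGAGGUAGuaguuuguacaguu
mmu-let-7i-5p: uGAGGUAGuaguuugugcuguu
mmu-miR-98-5p: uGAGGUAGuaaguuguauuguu
All are 22 nt long and carry the seed GAGGUAG. Counted from the 5′ end, let-7c-5p (A19G), let-7e-5p (U9G) and let-7f-5p (G12A) differ from let-7a-5p at 1 base each. let-7b-5p (A17G and A19G), let-7d-5p (U1A and U16C), let-7g-5p (G12U and U18C) and miR-98-5p (G11A and A19U) differ from it at 2, and let-7i-5p (G12U, A17G, U18C and A19U) at 4. Of the 36 pairs of members, 4 differ at a single base, and the most distant differ at 6. Reads of up to 25 nt were mapped without mismatches, so a single misread base could move a read between such pairs, and small differences between near-identical members are uncertain to that extent.

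Outside the family, RefSeq holds few mature mouse miRNAs with this seed: 11 of 1679 in all, the 9 guide strands included. The other two are let-7k, with 17 counts over all libraries, and miR-1961, at 0 counts in every library, which allows up to 1.03 to 2.57 CPM per library. Of 2 miRNAs with the near seed GAGGUAU, let-7j had 763 counts in all, 33 to 96 per library, and miR-202-3p 9. Only let-7j of these 4 relatives was tested, and it did not pass in naive mdx against naive wt (log2 fold change -0.71).

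The 9 strands are made from 12 hairpins on 7 chromosomes (GRCm38, GENCODE annotation). Mirlet7a-1 (chr13:48538179-48538272), Mirlet7f-1 (chr13:48537829-48537917) and Mirlet7d (chr13:48536012-48536114) lie on the minus strand within exons of the noncoding gene 6720427I07Rik. Mirlet7c-2 (chr15:85706603-85706697) and Mirlet7b (chr15:85707319-85707403) lie on the plus strand in exons of Lncppara, 621 bp apart. Mirlet7f-2 (chrX:151912346-151912428) and Mir98 (chrX:151913214-151913321) share an intron of Huwe1 on the plus strand, 785 bp apart. Mirlet7a-2 (chr9:41536716-41536811, plus strand) lies in an intron of 3110039I08Rik, 5211 bp from Mir100. Mirlet7c-1 (chr16:77599657-77599750, plus strand) lies in an intron of Mir99ahg, 656 bp from Mir99a. Mirlet7e (chr17:17830352-17830444, plus strand) lies in an intron of Spaca6, 94 bp from Mir99b and 367 bp from Mir125a. Mirlet7g (chr9:106178840-106178927, plus strand, an intron of Wdr82) and Mirlet7i (chr10:122985640-122985724, minus strand, an exon of the transcribed pseudogene D630033A02Rik) are single. let-7a-5p, let-7c-5p and let-7f-5p each have 2 hairpins, whose contributions cannot be told apart in mature counts.

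Total counts were 1167161 to 2899315 per library. Individual members drew on very different counts: let-7c-5p had 19811 to 67045 per library, miR-98-5p 57 to 448 and let-7e-5p 37 to 231. Levels below are counts per 1000000 counts of a library (CPM) after TMM scaling, which sets libraries to one another by the bulk of their miRNAs. That choice matters in this plasma. miR-122-5p, the liver miRNA, took 37.6% to 64.6% of wt counts and 1.37% to 16.1% of mdx counts, while the muscle list of 8 miRNAs took 0.707% to 2.09% in wt mice and 28.3% to 46.7% in mdx mice. A plasma level is a share of the small RNA sequenced, so a lower level of a strand and a higher level of the rest cannot be told apart. The labels tell mice apart by group and number only, so p-values measure the spread between mice as sampled.

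In naive wt plasma the 9 strands summed to 72468, 79103 and 73656 CPM in mice 86, 89 and 95. In naive mdx plasma the sums were 30957, 37074 and 35612 CPM in mice 36, 37 and 39. The wt mice were close together and every naive mdx mouse lay far below them, with means of 75076 ± 3538 CPM (SD, n = 3) in wt and 34548 ± 3194 CPM (SD, n = 3) in naive mdx mice. With vehicle the sums were 47827, 52291, 37120 and 37526 CPM in mice 40 to 43, and with Givinostat 51710, 50237 and 41905 CPM in mice 31, 34 and 35. All 10 mdx mice, at 30957 to 52291 CPM, were below all 3 wt mice. The sum is a description over chosen members and was given no test. As a share of all counts the strands made up 5.40% to 9.70% in wt plasma against 3.49% to 4.24% in naive mdx plasma, and there vehicle mouse 41 (5.54%) and Givinostat mouse 31 (6.03%) lay within the wt range. Of the counts other than miR-122-5p they were 13.6% to 15.5% in wt mice and 3.60% to 6.22% in mdx mice. With the muscle list also left out, a scale chosen after the data were seen, they were 14.1% to 16.1% in wt and 6.03% to 10.2% in mdx mice.

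**Figure D1:**
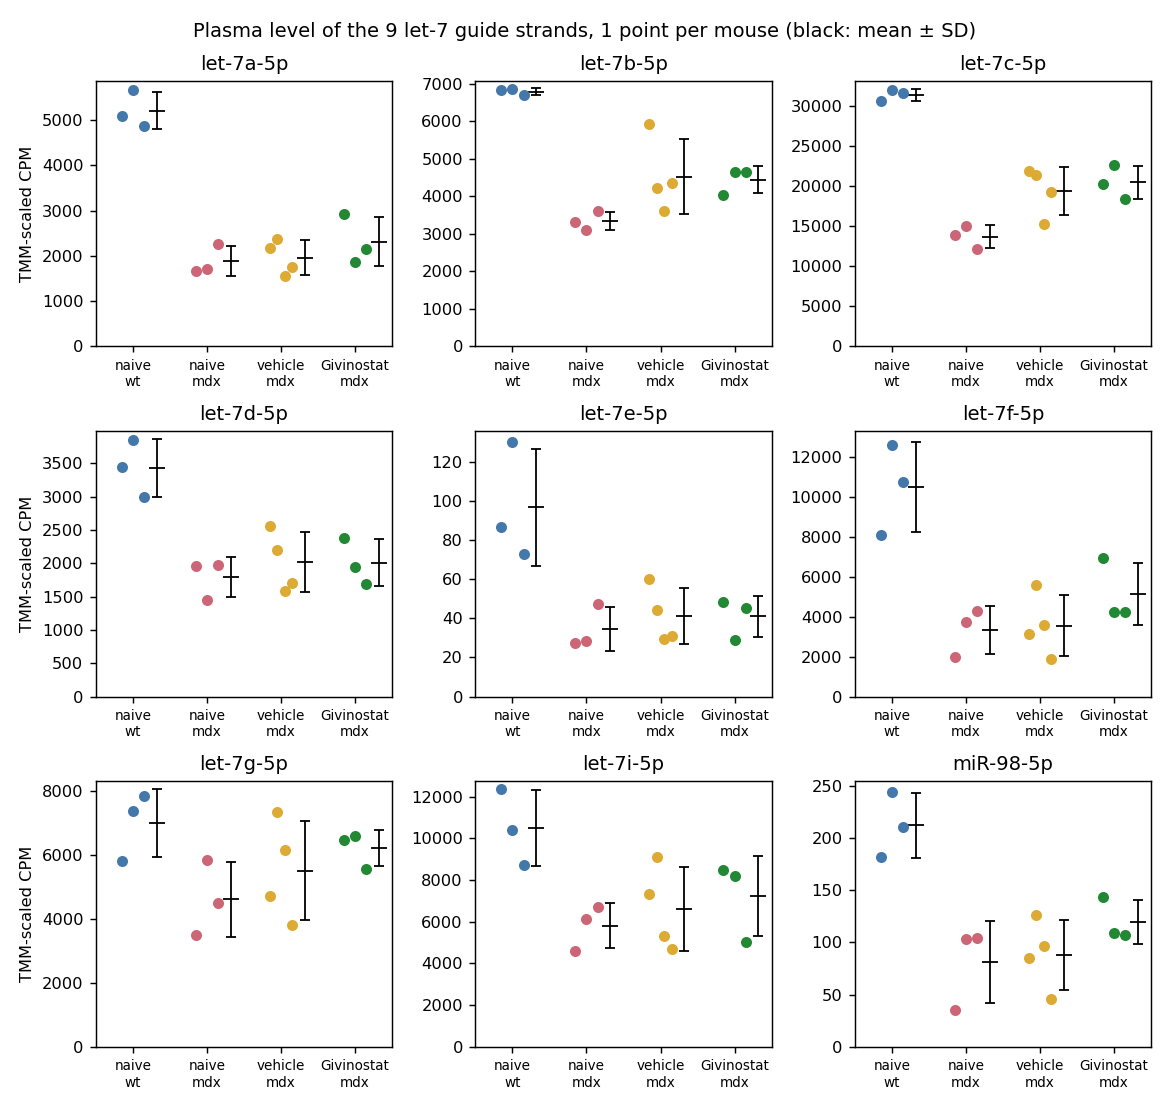
TMM-scaled CPM (vertical axes, from 0) of each of the 9 let-7 guide strands in 3 naive wt, 3 naive mdx, 4 vehicle and 3 Givinostat mice; points are mice and black bars the mean ± SD. For let-7a-5p the wt mice sit at 4869 to 5660 CPM and all mdx mice at 1549 to 2921 CPM, whereas for let-7g-5p the wt and mdx ranges overlap.

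The comparison of naive mdx with naive wt mice asks how the plasma level differs between the genotypes. The mdx and wt mice were bought as separate strains, so the Dmd mutation and other strain differences cannot be told apart. The guide strands were lower in naive mdx plasma: 8 of 9 fell at an adjusted p under 0.05 (edgeR quasi-likelihood test, Benjamini-Hochberg over 368 miRNAs), and none rose. Among all miRNAs tested, 16.6% fell. The members' median log2 fold change was -1.20, and that of all tested miRNAs 0.035. Without overlap between the groups' CPM were 8 of 9 members in the lower direction, against 27.7% of all tested miRNAs. let-7g-5p was the member that did not pass.

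Members of the chromosome 13 cluster included the strand that fell most. let-7f-5p, from hairpins on chromosomes 13 and X, stood at 8117, 12622 and 10734 CPM in the wt mice and at 1973, 3727 and 4275 CPM in naive mdx mice 36, 37 and 39. The groups were apart and mouse 36 was the lowest, and the log2 fold change was -1.66 (SE 0.37, adjusted p = 0.00194), 3.15-fold lower. let-7a-5p stood at 5103, 5660 and 4869 CPM in wt and at 1674, 1703 and 2267 CPM in naive mdx mice. It is the archetype of the family, and its wt mice differed little (5211 ± 406 CPM, SD, n = 3) compared with the distance to naive mdx (1881 ± 334 CPM, SD, n = 3). let-7d-5p, the third strand of this cluster, spanned 2992 to 3855 CPM in wt against 1444 to 1977 CPM in naive mdx plasma (log2 fold change -0.94, SE 0.25, adjusted p = 0.00603).

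let-7c-5p was the most abundant member in every mouse. It stood at 30546, 31976 and 31523 CPM in wt and at 13868, 14981 and 12158 CPM in naive mdx mice. Both groups were tight and lay far apart. let-7b-5p, its neighbour on chromosome 15, spanned 6690 to 6865 CPM in wt against 3100 to 3597 CPM in naive mdx plasma (log2 fold change -1.02, SE 0.22, adjusted p = 0.0015). In counts, which no scaling changes, there were 4.48 to 4.71 let-7c-5p counts for each let-7b-5p count in wt plasma against 3.38 to 4.83 in naive mdx plasma.

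Both of the least abundant members fell. miR-98-5p, which shares the Huwe1 intron with a let-7f hairpin, stood at 182, 244 and 211 CPM in wt and at 35.7, 103 and 104 CPM in naive mdx mice. Mouse 36 was again the lowest, and the log2 fold change was -1.39 (SE 0.39, adjusted p = 0.00861). let-7e-5p stood at 86.7, 130 and 72.9 CPM in wt and at 27.5, 28.3 and 47.2 CPM in naive mdx mice (log2 fold change -1.48, SE 0.36, adjusted p = 0.0033). The 2 members made from single hairpins outside any cluster had the estimates nearest 0. let-7i-5p spanned 8710 to 12349 CPM in wt against 4602 to 6693 CPM in naive mdx plasma (log2 fold change -0.85, SE 0.29, adjusted p = 0.0254). let-7g-5p stood at 5814, 7370 and 7855 CPM in wt and at 3489, 5849 and 4494 CPM in naive mdx mice, so that mdx mouse 37 lay above wt mouse 86. Its log2 difference was -0.61 (SE 0.27, 95% interval -1.17 to -0.04, adjusted p = 0.0747).

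The sizes of these falls depended on the scale, as the plot of scalings shows, and their direction did not among scalings of the counts. Scaled to library totals, where the median of all miRNAs moved to 0.43 and 23 miRNAs fell and 118 rose (61 and 99 with TMM), 5 of 9 members passed, and let-7b-5p, let-7d-5p, let-7g-5p and let-7i-5p did not. A fit with the miR-451a/miR-23a-3p ratio (log2), an index of red cell RNA in plasma, as a covariate passed none, with let-7a-5p at -0.48 (95% interval -1.84 to 0.87) and let-7d-5p and let-7i-5p above 0. That ratio was -0.11 to 0.11 in wt mice and -2.68 to -0.69 in mdx mice, so index and genotype cannot be told apart. By group it was -2.68 to -1.80 in naive mdx, -2.14 to -1.67 with vehicle and -1.54 to -0.69 with Givinostat.

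**Figure D2:**
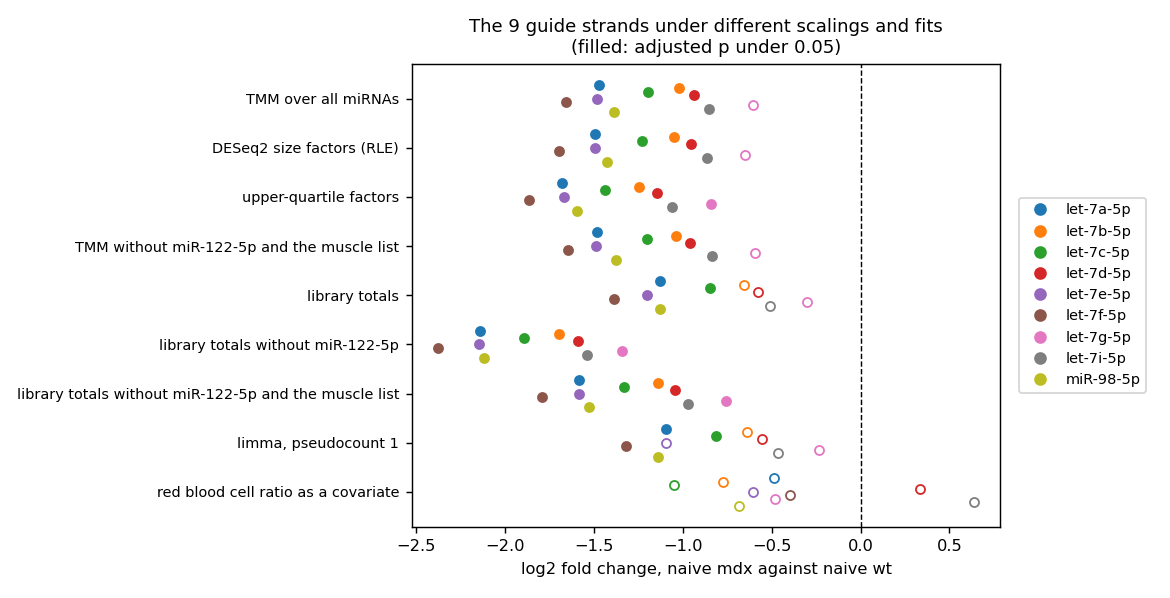
log2 fold change of each guide strand between naive mdx and naive wt mice (horizontal axis) under 9 scalings or fits (rows); filled points have an adjusted p under 0.05. With TMM the 9 points lie between -1.66 and -0.61, library totals move all of them toward 0 and totals without miR-122-5p away from it; only the fit with the red cell ratio puts let-7d-5p and let-7i-5p above 0, with no filled point.

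Vehicle-treated mdx mice were set against the same naive wt mice, which they and the Givinostat group share as controls. With vehicle 7 of 9 members fell (edgeR, adjusted p under 0.05) and none rose, where 23.1% of all tested miRNAs fell. let-7f-5p stood at 3137, 5583, 3562 and 1900 CPM in mice 40 to 43, all below the wt mice (log2 fold change -1.57, SE 0.34, adjusted p = 0.00131). let-7a-5p, at 2178, 2375, 1549 and 1759 CPM, did not overlap wt either (log2 fold change -1.41, SE 0.22, adjusted p = 0.000108). let-7c-5p stood at 21815, 21306, 15235 and 19194 CPM (log2 fold change -0.69, SE 0.20, adjusted p = 0.0102). The 7 strands that fell were those whose CPM did not overlap the wt range, against 25.0% of all tested miRNAs in that direction. let-7i-5p, at 4714 to 9113 CPM, differed by -0.66 (95% interval -1.23 to -0.10, adjusted p = 0.0501), and let-7g-5p, at 3823 to 7336 CPM, by -0.35 (95% interval -0.87 to 0.18, adjusted p = 0.242). Without vehicle mouse 43, 4 of 9 members passed, and let-7b-5p, let-7c-5p, let-7d-5p, let-7g-5p and let-7i-5p did not. Over all tested miRNAs 46 of 363 fell there, against 85 of 368 with every library.

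With Givinostat 6 of 9 members fell relative to naive wt and none rose, where 11.7% of all tested miRNAs fell. let-7a-5p stood at 2921, 1874 and 2162 CPM in mice 31, 34 and 35, all below the wt mice (log2 fold change -1.17, SE 0.24, adjusted p = 0.00163). let-7f-5p stood at 6927, 4230 and 4242 CPM and let-7c-5p at 20283, 22607 and 18416 CPM, with log2 fold changes of -1.03 (SE 0.36, adjusted p = 0.0373) and -0.62 (SE 0.22, adjusted p = 0.0368). CPM of 8 members did not overlap the wt range, against 25.3% of all tested miRNAs in that direction. let-7g-5p (-0.18, 95% interval -0.74 to 0.39), let-7i-5p (-0.53, 95% interval -1.14 to 0.07) and miR-98-5p (-0.83, 95% interval -1.63 to -0.02, adjusted p = 0.105) did not pass. Each call other than that of let-7a-5p was lost when some single library was left out: without wt mouse 89 or without Givinostat mouse 34 only let-7a-5p passed, without Givinostat mouse 35 only 2 members did, and without wt mouse 95 3 did. Calls over all tested miRNAs dropped as well, from 43 of 368 lower with every library. They were 24 of 382 without wt mouse 89 and 31 of 390 without Givinostat mouse 34. Without Givinostat mouse 35 they were 25 of 390, and without wt mouse 95 33 of 389.

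**Figure D3:**
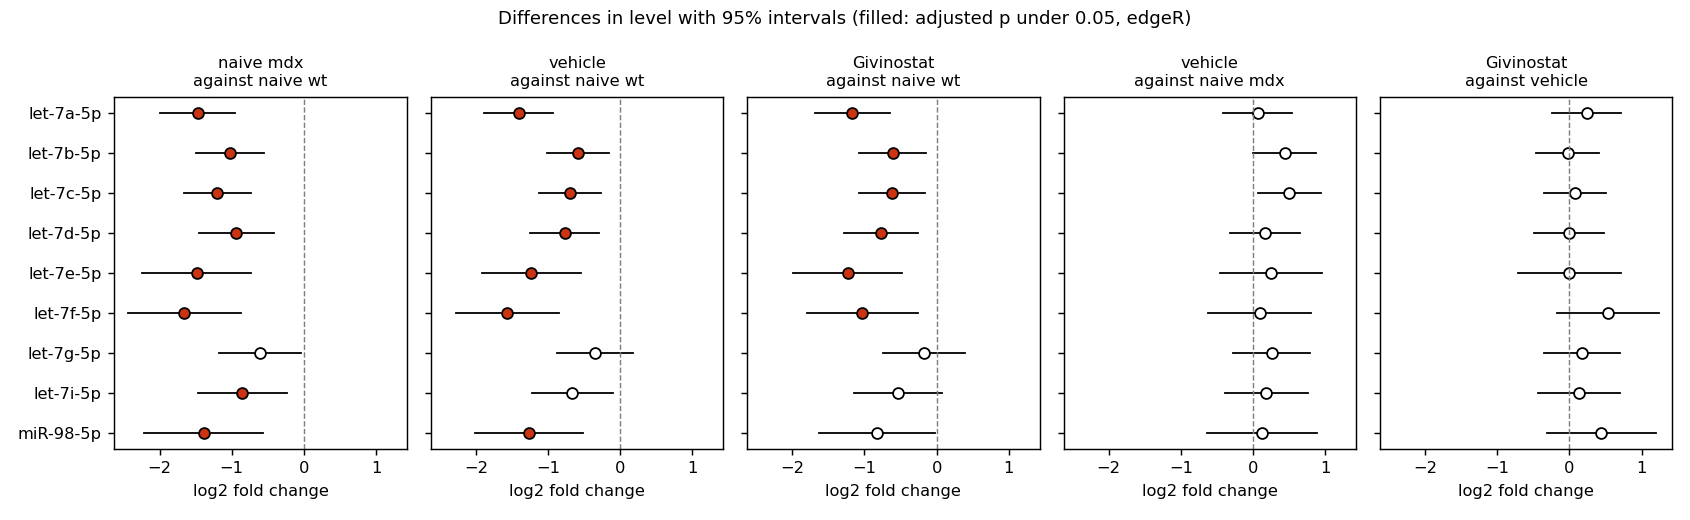
log2 fold change (horizontal axes) of each guide strand in 5 comparisons, with 95% intervals as bars and points filled where the adjusted p is under 0.05 (edgeR). Against naive wt 8, 7 and 6 of 9 members are filled, all to the left of 0, and none is filled between groups of mdx mice.

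The comparison of vehicle with naive mdx mice asks whether gavage with the vehicle alone moved the strands. None of 9 members passed (edgeR), where 0.0% of all tested miRNAs passed in either direction. All 9 estimates were above 0, with log2 differences of 0.063 to 0.50, where the median of all tested miRNAs was -0.13. The 5 miRNAs of shared host transcripts described below were above 0 as well. The strands share 1 scaling, so their signs are not 9 separate observations. At an unadjusted p under 0.05 were let-7b-5p and let-7c-5p. At that threshold 10 of all 368 tested miRNAs were higher and 7 lower. let-7c-5p was 15235 to 21815 CPM with vehicle and 12158 to 14981 CPM in naive mdx mice, without overlap, a log2 difference of 0.50 (SE 0.20, unadjusted p = 0.0254, adjusted p = 0.801). let-7b-5p did not overlap either, at 3605 to 5928 and 3100 to 3597 CPM, a difference of 0.44 (SE 0.21, unadjusted p = 0.049, adjusted p = 0.801). By comparison 2.17% of all tested miRNAs did not overlap between these groups.

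The comparison of Givinostat with vehicle asks what the drug did. None of 9 members passed (edgeR, at an unadjusted p under 0.05 none either), where 0.272% of all tested miRNAs rose and 0.0% fell. At the unadjusted threshold 15 of all 368 were higher and 10 lower. The log2 differences of the members ran from -0.025 to 0.53. let-7f-5p had the largest difference, 0.53 (95% interval -0.18 to 1.24, adjusted p = 0.71), with Givinostat mouse 31 above all vehicle mice and mice 34 and 35 between them. miR-98-5p, at 144, 109 and 107 CPM with Givinostat and 85.1, 126, 96.1 and 45.5 CPM with vehicle, differed by 0.44 (95% interval -0.31 to 1.20, adjusted p = 0.823). The 95% intervals were -0.46 to 0.41 for let-7b-5p, -0.35 to 0.50 for let-7c-5p and -0.49 to 0.48 for let-7d-5p. These 2 groups also differed in the red cell ratio, at -1.54 to -0.69 with Givinostat and -2.14 to -1.67 with vehicle. miR-451a itself differed by 0.76 (SE 0.22, edgeR adjusted p = 0.255). With the ratio as a covariate no member passed either, and its part in these differences was not tested further.

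Scaling to the summed count of the 9 strands asks whether members changed relative to one another, which does not depend on the liver, muscle or total counts. let-7c-5p made up 40.4% to 42.8% of the 9 strands in wt mice and 34.1% to 51.1% in mdx mice. let-7i-5p followed with 11.8% to 17.0% in wt and 12.0% to 18.8% in mdx mice, and miR-98-5p and let-7e-5p together stayed under 1% in every mouse. On this scale no member passed between naive mdx and naive wt (edgeR, lowest adjusted p of a member 0.0943), where 1.63% of all tested miRNAs fell and 59.0% rose. let-7g-5p took 8.02%, 9.32% and 10.7% of the strands in the wt mice and 11.3%, 15.8% and 12.6% in naive mdx mice 36, 37 and 39, which did not overlap. The relative log2 difference of let-7g-5p was 0.50 (SE 0.25, adjusted p = 0.0943). let-7a-5p took 7.04%, 7.16% and 6.61% in wt and 5.41%, 4.59% and 6.36% in naive mdx mice, also without overlap, with a relative difference of -0.35 (SE 0.22, adjusted p = 0.19). let-7f-5p took 13.9% ± 2.45 (SD, n = 3) in wt and 9.48% ± 2.86 (SD, n = 3) in naive mdx mice, with ranges that overlapped. Its relative difference was -0.55 (SE 0.32, adjusted p = 0.143). The share of all tested miRNAs without overlap on this scale was not counted, so the separations of let-7g-5p and let-7a-5p are a description.

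With vehicle, let-7a-5p and let-7f-5p were lower than in wt also relative to the other strands. let-7a-5p took 4.17% to 4.69% of the 9 strands there, a relative log2 difference of -0.63 (SE 0.21, adjusted p = 0.018), and let-7f-5p 5.06% to 10.7%, one of -0.80 (SE 0.29, adjusted p = 0.0313). In this comparison 4.89% of all tested miRNAs fell. These 2 calls were not checked under alternatives. For Givinostat against naive wt neither strand passed on this scale (edgeR), where 4 of 368 miRNAs fell. The relative log2 differences there were -0.52 for let-7a-5p (SE 0.22, adjusted p = 0.0816) and -0.39 for let-7f-5p (SE 0.32, adjusted p = 0.394). No member passed between Givinostat and vehicle on this scale (edgeR, 0.0% of all tested miRNAs passed in either direction), with let-7f-5p at 8.42% to 13.4% and 5.06% to 10.7% of the strands (relative difference 0.42, 95% interval -0.21 to 1.04).

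**Figure D4:**
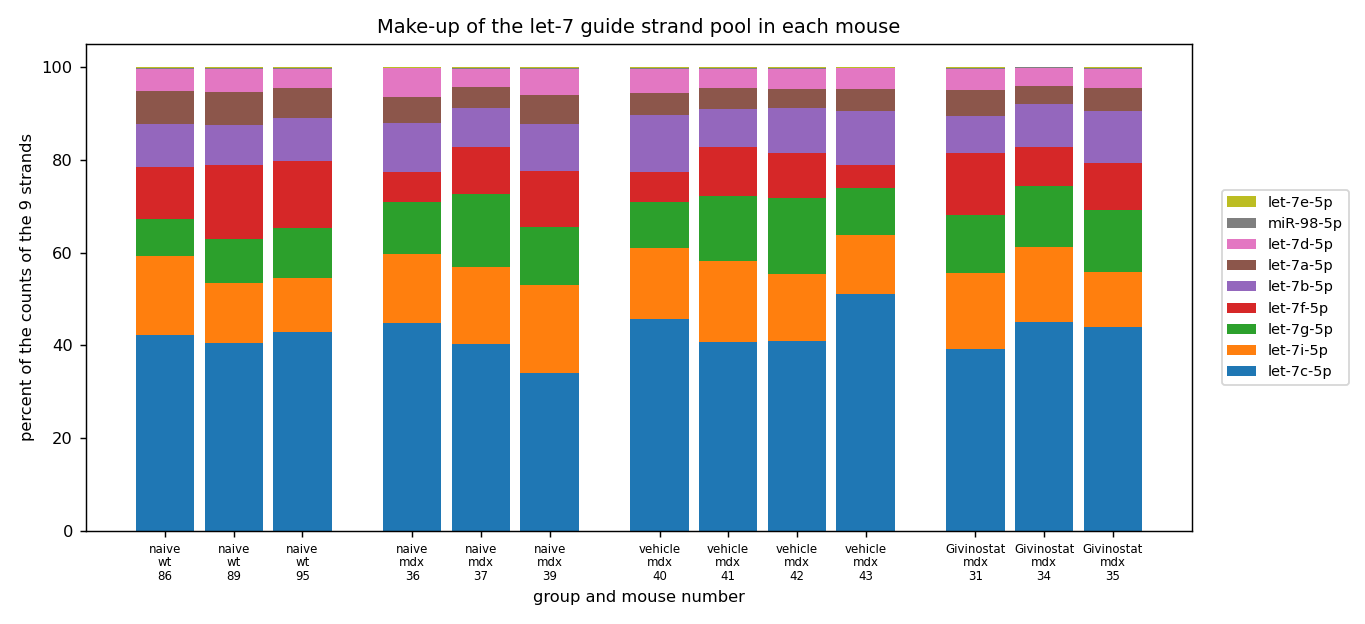
Percent of the summed count of the 9 guide strands taken by each strand (vertical axis, stacked from 0 to 100) in each of 13 mice, by group. let-7c-5p is the largest part in every mouse, and the let-7g-5p part is 8.02% to 10.7% in wt mice and 9.89% to 16.6% in mdx mice.

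The order of levels differed between genotypes below let-7c-5p. In wt mice let-7f-5p and let-7i-5p came next, with means of 10491 and 10480 CPM that did not differ beyond their spread, then let-7g-5p and let-7b-5p, which overlapped as well, then let-7a-5p, let-7d-5p, miR-98-5p and let-7e-5p, each apart from the one before. In naive mdx mice the order was let-7i-5p, let-7g-5p, let-7b-5p, let-7f-5p, let-7a-5p and let-7d-5p, with each neighbour in that order overlapping the next. Counts of let-7f-5p exceeded those of let-7g-5p in all 3 wt mice (log2 ratio of let-7g-5p to let-7f-5p -0.78 to -0.45), and in all naive mdx and vehicle mice let-7g-5p was the higher (0.072 to 0.82 and 0.39 to 1.01). With Givinostat the ratio was -0.10 to 0.64. This pair was picked after its values were seen and the ratio was not tested.

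The miRNAs made beside the guide strands were compared with them. miR-99a-5p, miR-99b-5p, miR-100-5p, miR-125a-5p and miR-125b-5p are of other seed families, and their hairpins share host transcripts with let-7c, let-7e and let-7a hairpins. Of these 5 neighbours none fell in naive mdx plasma and 1 rose, where 26.9% of all tested miRNAs rose. The riser was miR-100-5p, at 2857, 3868 and 3254 CPM in wt and 5499, 7502 and 4893 CPM in naive mdx mice (log2 fold change 0.84, SE 0.26, adjusted p = 0.0159), while let-7a-5p, which shares 1 of its 2 host transcripts, had a log2 fold change of -1.47. miR-99b-5p, 94 bp from let-7e, differed by 0.042 (95% interval -0.48 to 0.56, adjusted p = 0.9), and miR-99a-5p, 656 bp from Mirlet7c-1, by 0.089 (95% interval -0.42 to 0.60, adjusted p = 0.777). As ratios of counts, which no scaling changes, the log2 ratio of let-7e-5p to miR-99b-5p was -4.79 to -3.91 in wt and -6.63 to -5.20 in mdx mice. The log2 ratio of let-7c-5p to miR-99a-5p was -0.72 to -0.24 in wt and -1.85 to -0.83 in mdx mice. That of let-7a-5p to miR-100-5p was 0.55 to 0.84 in wt and -2.34 to -0.96 in mdx mice. None of these 3 pairs overlapped between wt and mdx mice. The log2 ratio of let-7e-5p to miR-125a-5p, 367 bp away, did overlap, at -4.68 to -3.31 in wt and -6.49 to -3.75 in mdx mice. The ratios were not tested.

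Passenger strands of the same hairpins were also counted. Of 12, 7 had counts enough to test, and of these 4 rose and none fell in naive mdx plasma, where 26.9% of all tested miRNAs rose and 16.6% fell. The largest by count was let-7d-3p, at 2636, 1748 and 1847 CPM in wt and 5564, 4346 and 4397 CPM in naive mdx mice (log2 fold change 1.20, SE 0.26, adjusted p = 0.00179). Per let-7d-3p count there were 1.31 to 2.21 let-7d-5p counts in wt mice and 0.312 to 0.826 in the 10 mdx mice, so that the arm with more counts was the guide in wt mice and the passenger in mdx mice. let-7f-1-3p, with 23 to 120 counts per library, rose as well (log2 fold change 1.92, SE 0.35, adjusted p = 0.000342). Both were picked after their values were seen.

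**Figure D5:**
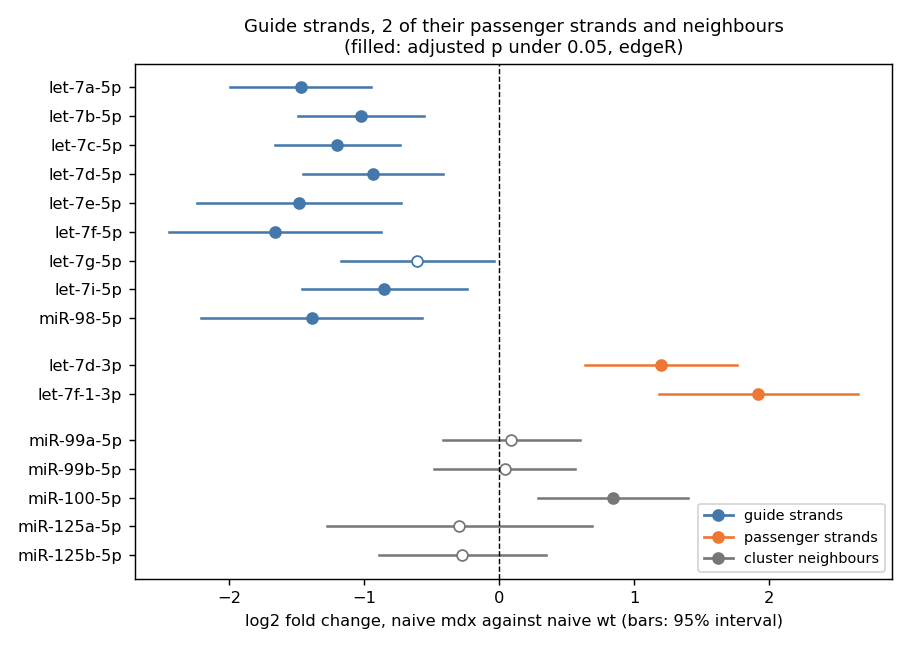
log2 fold change between naive mdx and naive wt mice (horizontal axis, bars 95% intervals) of the 9 guide strands, 2 passenger strands and 5 miRNAs from shared host transcripts; filled points have an adjusted p under 0.05 (edgeR). The guide strands lie left of 0, from -1.66 to -0.61, let-7d-3p and let-7f-1-3p right of it, and of the neighbours miR-100-5p alone is filled, at 0.84.

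The 5 miRNAs of other families most like the summed strands over the 13 mice, by root mean square difference in centred log2 CPM among 170 with a mean of at least 50 CPM, were miR-16-5p (0.167), miR-374b-5p (0.231), miR-93-5p (0.237), miR-140-5p (0.253) and miR-451a (0.271). For scale, members themselves were 0.132 (let-7c-5p) to 0.468 (let-7f-5p) from the sum that contains them. miR-16-5p, a miRNA of red cells and many other cells, was 1161 to 1379 CPM in wt and 572 to 1040 CPM in mdx mice. miR-451a, made in red cells, was 4854 to 6034 CPM in wt and 2215 to 5548 CPM in mdx mice. The 5 were chosen by their likeness to a sum that is lower in mdx mice, so their own log2 fold changes in naive mdx plasma, -1.17 to -0.65, follow from that choice and are given as a description.

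Markers of cells that can shed RNA into plasma were counted in the same comparison of naive mdx with naive wt mice, in which 16.6% of all tested miRNAs fell and 26.9% rose. Of the red blood cell list 4 of 5 fell in naive mdx plasma and miR-486a-5p, also made in muscle, rose. The summed level of that list was 6638 to 7974 CPM in wt, 4485 to 4777 CPM in naive mdx, 4896 to 10757 CPM with vehicle and 6171 to 7749 CPM with Givinostat. The sum contains miR-486a-5p, which rose with vehicle against naive wt (log2 fold change 3.40, SE 0.49), where the other 4 fell. miR-451a alone was 2363 to 3343 CPM with vehicle and 4854 to 6034 CPM in wt mice. Of the liver list 4 of 4 fell in naive mdx plasma, with sums of 316532 to 892525 CPM in wt and 13937 to 193935 CPM in mdx mice. Of the muscle and heart list 6 of 7 tested rose, with sums of 9631 to 17556 CPM in wt and 207069 to 534310 CPM in mdx mice. Lists with 2 or 3 tested markers are too short to set against these shares. Of the myeloid list 1 of 3 fell (4712 to 6018 CPM in wt, 3419 to 4010 CPM in naive mdx mice), of the platelet and endothelium list 1 of 2 (6735 to 10176 and 3023 to 4450 CPM), and of the lymphocyte list 0 of 3 (2732 to 3525 and 1034 to 4849 CPM; at an unadjusted p none either). None of these markers was at 0 throughout. Their part in the lower let-7 level was not tested beyond the fit with the red cell ratio given above.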

How the data were processed

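Plasma RNA was extracted with a serum/plasma kit and 1 small RNA library per mouse was sequenced. The authors trimmed adapters (Trimmomatic in the methods, cutadapt 1.4.2 in the submitters' processing notes), mapped collapsed reads with Bowtie 1.0.0 to GRCm38, without mismatches up to 25 nt, and deposited raw counts per mature miRNA of miRBase 21 as the sum over its isomiRs. The log2 values deposited by the authors equal the log2 of these counts plus 1 constant per library and were used only in the limma alternatives. The constants fell as library totals rose, from 0.29 at 1167161 counts to -1.02 at 2899315 counts. The deposited values, and so the limma alternatives, are thus scaled to library totals. Columns were matched to mice by name, and groups share no animals. All 15 pairs of libraries of a group differed beyond sampling noise (chi-square per degree of freedom of at least 104.5). The protocol mentions no molecular identifiers, so counts are of reads after PCR.

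Counts were filtered (filterByExpr by group, minimum count 10), scaled by TMM and fitted in edgeR 4.0.16 (R 4.3.3) with 1 mean per group over all 13 libraries (glmQLFit with legacy = FALSE, glmQLFTest), a step tested on simulated data. In the simulation 60.3% of 2-fold changes were called for naive mdx against naive wt and 57.1% for Givinostat against vehicle. Of 4-fold changes 95% and 95.1% were called, and 2.55% and 4.38% of calls were false. The simulation started from the same mean in all groups and changed many miRNAs, in both directions. It gave 160 calls for Givinostat against vehicle, where the data gave 1 of 368. The adjustment is stricter when few miRNAs change, so 57.1% does not carry over to that comparison. Calls have a Benjamini-Hochberg adjusted p under 0.05 over 368 miRNAs. Relative changes used the summed count of the 9 strands as library size. The floor of 3 counts is 1.03 to 2.57 CPM of library totals, before TMM scaling, and covers counting error only. Alternatives were other scalings, filters, DESeq2 1.42.0, limma 3.58.1 with pseudocounts of 1 and 5, 2 groups only, a red cell covariate and each library left out.

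Named were all 9 members, 5 neighbours, 4 seed relatives, up to 2 passenger strands and the 5 most alike miRNAs. Members and lists were chosen with earlier results of these data known. Sequences and positions come from RefSeq and GENCODE tables of GRCm38.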

Additional observations from a re-analysis of the deposited data

Results flagged for a closer look

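The share of let-7e-5p among the 9 guide strands was set apart in 1 vehicle mouse: mouse 40 had 0.125%, from 86 counts, and the other vehicle mice had 0.0787% to 0.0843%, from 38 to 60 counts. It was the only one of 19 quantities examined in the group of 4 vehicle mice whose gap to the nearest mouse exceeded the 95% critical value of Dixon's test for 4 samples (gap over range 0.88), which chance passes in about 1 group in 20. let-7e-5p is the member with the fewest counts.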

How the results depend on the processing

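Between naive mdx and naive wt, 8 of 9 members passed in the analysis as reported, and 169 of 171 values of the members under 19 alternatives were below 0. Passing members numbered 5 with library totals, 4 and 3 with limma (pseudocounts of 1 and 5), 0 with the red cell covariate, and 7 to 9 when each library was left out, where let-7i-5p was lost without naive mdx mouse 36 or naive wt mouse 86 or 89. For vehicle against naive wt the 7 became 4 with library totals, 4 without a filter, 3 and 3 with limma, 0 with the covariate, and 4 to 7 when each library was left out. For Givinostat against naive wt the 6 became 1 with library totals, 3 with TMM computed without miR-122-5p and the muscle list, 3 without a filter, 1 and 1 with limma, 0 with the covariate, and 1 to 5 when each library was left out. The limma alternatives used values scaled to library totals, so test and scaling changed together there. The cause was not tested.

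With the covariate the sign turned for let-7d-5p (0.34 in naive mdx and 0.33 with vehicle, both against naive wt) and let-7i-5p (0.64, 0.58 and, with Givinostat, 0.12). It also turned between naive mdx and naive wt for miR-100-5p (-0.69), miR-451a (0.17), miR-144-3p (1.30), miR-144-5p (1.47), miR-16-5p (0.029), miR-374b-5p (0.074), miR-93-5p (0.51) and miR-140-5p (0.14), none of which passed there. miR-451a is itself part of the covariate, so its value there follows from the fit and is no separate result. The log2 ratio of the summed strands, naive mdx to naive wt, was -1.12 in TMM-scaled CPM, -0.78 as a percent of all counts, -1.82 without miR-122-5p and -1.25 without miR-122-5p and the muscle list, the last added after the data were seen. No member passed between groups of mdx mice, or in the make-up of the 9 strands for naive mdx against naive wt and Givinostat against vehicle, under any alternative run. Over all tested miRNAs, naive mdx against naive wt gave 61 lower and 99 higher as reported, 23 and 118 with library totals, 164 and 55 without miR-122-5p in the totals, 89 and 85 without it and the muscle list, 96 and 82 with upper-quartile factors, 19 and 115 and 18 and 112 with limma, and 0 and 1 with the covariate. Vehicle against naive wt gave 85 and 89, and 44 and 88, 203 and 48, 108 and 76, 109 and 76, 39 and 90, 39 and 86, and 0 and 2 in the same order. Givinostat against naive wt gave 43 and 83, and 18 and 77, 211 and 36, 56 and 70, 49 and 75, 10 and 76, 11 and 73, and 0 and 22. When each library was left out, 40 to 64 miRNAs fell in naive mdx against naive wt. In the same fits 46 to 81 fell with vehicle and 24 to 41 with Givinostat, both against naive wt. No paired analysis was possible because the groups share no animal numbers. Groups of 3 or 4 mice limit the precision of every member, and let-7e-5p and miR-98-5p rest on the fewest counts, 37 to 231 and 57 to 448 per library.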
